A study of Mus musculus with 2 samples.

Results

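The gene set described here holds 34 mouse genes known from megakaryocytes and platelets. They were taken from a list of symbols with no threshold on measured values, but with earlier results of these data known. Of these, 33 had a row among the 43346 annotated genes of both gene tables, and Gp49a was not analysed here. Transcript levels were measured by total RNA sequencing of whole liver from B6NCrl embryos at day 13.5 that are labelled healthy, with male and female embryos pooled and no treatment named. The series consists of 2 libraries of this 1 group, labelled biological replicates 1 and 2, each made from 10 ng of RNA longer than 200 nt with spike-in RNAs added. The labels give the replicates separate tissue samples but the same donor entry, so the SDs given here (n = 2) hold no more than the spread between these tissue samples, which may be technical. With 1 group, no condition could be compared and no p-value was computed. The comparisons are between members within a library and between the libraries.

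Megakaryocytes are the large polyploid blood cells that shed platelets, and in the mid-gestation fetus the liver is the main organ in which blood cells form. They fill alpha granules with chemokines and adhesive proteins and dense granules with small molecules, build a microtubule coil, and place adhesion receptors on the surface. Platelets inherit these parts: the GPIb-IX-V complex binds von Willebrand factor, integrin alphaIIb-beta3 binds fibrinogen once it is activated from inside the cell, and receptors for thrombin, ADP and thromboxane carry the activating signals. The members were therefore read as receptors (14 genes), granule content and granule formation (9 genes), cytoskeleton and integrin activation (4 genes) and signalling with the enzymes of eicosanoid synthesis (6 genes).

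Replicate 1 held 39182457 and replicate 2 held 37432977 expected counts on annotated genes. The labelled tissue was checked on the hepatoblast products Alb, Afp and Apoa1, which stood at 1531 and 1789, 5630 and 6807 and 1955 and 2040 TPM. TPM is a level corrected for transcript length and for library size. The globin Hba-a1 stood at 57869 and 50805 TPM, and all members together at 1366 and 1354 TPM. In bulk RNA, fewer cells of a type and less RNA per cell cannot be told apart.

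Of the 33 members, 32 reached 1 TPM in both libraries, where 28.1% of all annotated genes and 52.1% of protein-coding genes did so. Since the members were chosen with earlier results of these data known, these shares describe the list and test nothing. In both libraries 22 members lay at 10 TPM or more, beside 14.4% of annotated and 27.9% of protein-coding genes. At 50 TPM or more lay 6 members, beside 4.85% and 9.29% of these genes. Their summed TPM was 0.139% of that of all genes in replicate 1 and 0.140% in replicate 2 (0.139% ± 0.000509, mean ± SD, n = 2). Pf4 and Ppbp alone accounted for 49.8% and 46.6% of that sum. The TPM of the median member was 16.6 and 19.3, above the medians of 10.8 and 12.1 TPM over all annotated genes that reached 1 TPM in both libraries. The plot of levels by role shows that the members spanned a range from P-selectin, below 1 TPM, to the chemokine Pf4.

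**Figure D1:**
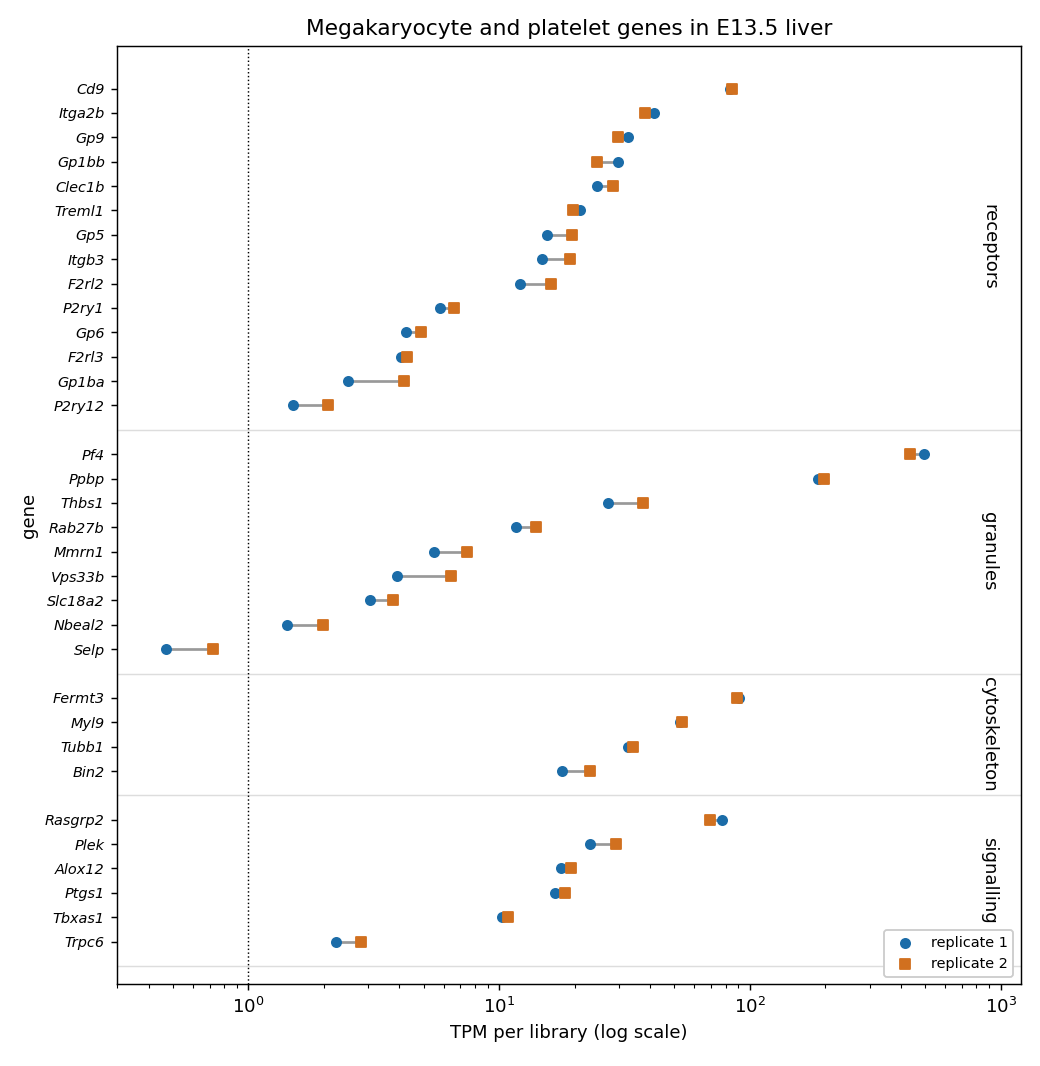
TPM of each of the 33 members (horizontal log axis, TPM) in replicate 1 (circles) and replicate 2 (squares), grouped by role, with a dotted line at 1 TPM. Pf4 and Ppbp stood far to the right at 463 and 192 TPM on average, only Selp lay left of 1 TPM, and most pairs of symbols nearly touched while Gp1ba and Vps33b were spread furthest.

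Ordered by mean level, the 33 members form 32 neighbouring pairs. In 13 of these the values of both libraries were apart, and in 11 the order differed between the libraries. Pf4, Ppbp and Fermt3, the highest 3 members, kept clear of each other in both libraries.

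The chemokine genes of the alpha granule were the highest members. Pf4 (ENSMUSG00000029373.6, platelet factor 4, an abundant alpha-granule chemokine) measured 492.92 TPM in replicate 1 and 433.41 TPM in replicate 2 (463 ± 42.1, SD, n = 2), rank 236 of the annotated genes. Its neighbour Ppbp (ENSMUSG00000029372.6, the precursor of several platelet chemokines) measured 186.7 and 197.74 TPM (192 ± 7.81). The libraries did not overlap, and Pf4 exceeded Ppbp 2.64-fold in replicate 1 and 2.19-fold in replicate 2. On GRCm38, Ppbp lies on the plus strand at chr5:90768518-90770063 and Pf4 follows on the same strand at chr5:90772435-90773383, starting 2372 nt past the end of Ppbp. In raw counts the pair was closer, at 9091 and 7178 for Pf4 against 6936 and 6597 for Ppbp, because the Pf4 transcript of 586 nt is shorter than the 1080 nt of Ppbp and TPM divides by length.

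Other granule proteins were far below the chemokines. Thbs1, thrombospondin 1, an adhesive alpha-granule glycoprotein, measured 27.1 and 37.45 TPM (32.3 ± 7.32). Mmrn1, multimerin 1, a carrier of factor V in the alpha granule, measured 5.48 and 7.41 TPM. Both were higher in replicate 2. Selp, P-selectin, which moves from granule membranes to the platelet surface on activation, measured 0.47 and 0.72 TPM (0.595 ± 0.177), the lowest member, at rank 13701. Only 43.16 and 36.61 expected counts lay behind these values, so counts were lower in the library in which TPM was higher. The mean transcript length assigned to Selp was 2513 nt in replicate 1 and 1592 nt in replicate 2, and the difference in TPM goes with that length.

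The genes that form and load granules were low. Rab27b, a small GTPase of dense-granule formation and secretion, led them with 11.69 and 13.96 TPM (12.8 ± 1.61). Vps33b, which sorts cargo toward alpha granules, measured 3.92 and 6.43 TPM, and Slc18a2, the vesicular monoamine transporter that loads serotonin into dense granules, 3.04 and 3.77 TPM. Nbeal2, the gene mutated in gray platelet syndrome and needed for alpha granules, measured 1.43 and 1.99 TPM. All 4 were higher in replicate 2. Nbeal2 stood at 0.365 times Vps33b in replicate 1 and 0.309 times in replicate 2. In counts this was 0.752 and 0.576 times. The mean log2 ratio of -1.57 in TPM became -1.13 with posterior mean TPM in place of TPM. With CCDS-tagged transcripts (those of the consensus coding sequence set) only, a restriction chosen after seeing the data, it became -2.70. The 4 genes had medians of 3.48 and 5.10 TPM, against 27.1 and 37.5 TPM for the 5 cargo and granule membrane genes.

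Receptors spanned 1.79 to 83.9 TPM. The tetraspanin Cd9, which associates with integrins and is found on many cell types, was the highest with 83.16 and 84.7 TPM (83.9 ± 1.09). Itga2b (ENSMUSG00000034664.9, minus strand, chr11:102453297-102470122), the alphaIIb chain of the fibrinogen receptor, measured 41.46 and 38.02 TPM (39.7 ± 2.43). Its partner Itgb3 (ENSMUSG00000020689.4, plus strand, chr11:104608000-104670476), the beta3 chain that also pairs with the alpha-v integrin, measured 14.86 and 19.11 TPM (17.0 ± 3.01). Itga2b was the higher of these subunits in both libraries, 2.79-fold and 1.99-fold. That order does not hold on counts not corrected for length, where Itga2b had 3550 and 3200 and Itgb3 3199 and 3694, so the mean log2 ratio was 1.24 ± 0.34 in TPM and -0.028 in counts.

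The 4 subunits of the von Willebrand factor receptor were unequal. Gp9 measured 32.6 and 29.65 TPM (31.1 ± 2.09), and Gp1bb, whose product is disulfide-linked to GPIb alpha, 29.87 and 24.55 TPM (27.2 ± 3.76). Gp5 measured 15.45 and 19.48 TPM (17.5 ± 2.85). Gp1ba (ENSMUSG00000050675.7, plus strand, chr11:70639122-70642036), which carries the binding site for von Willebrand factor, measured only 2.5 and 4.19 TPM (3.35 ± 1.2, from 246 and 364 counts). Gp1ba lay below the other three in both libraries with no overlap. Gp9 exceeded it 13.0-fold and 7.08-fold, Gp1bb 11.9-fold and 5.86-fold, and Gp5 6.18-fold and 4.65-fold. In counts Gp1ba was also the lowest, but the ratios were smaller, at 3.57-fold and 1.97-fold for Gp9, 4.65-fold and 2.17-fold for Gp1bb and 4.99-fold and 3.82-fold for Gp5. Gp1bb overlaps Sept5 on the same strand over 1902 nt, and both of its transcripts have other lengths in the annotation of the tables than in GENCODE M21, 645 and 1847 nt against 2085 and 1086 nt. Its level is therefore uncertain, while Sept5 itself stood at 1.62 and 2.10 TPM.

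**Figure D2:**
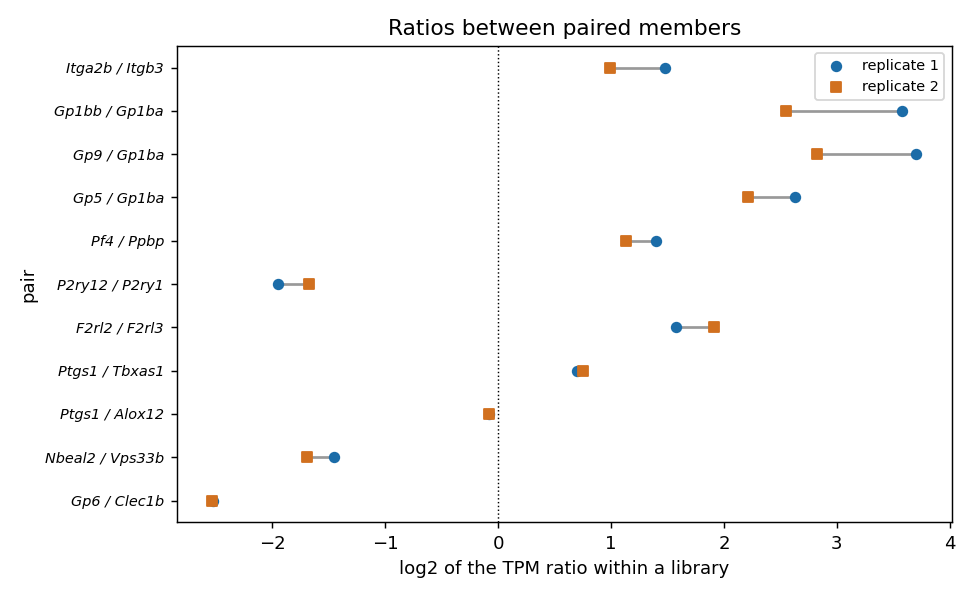
log2 of the TPM ratio within a library (horizontal axis) for 11 pairs of members in replicate 1 (circles) and replicate 2 (squares), with a dotted line at equal levels. The 3 ratios over Gp1ba lay furthest right and the ratio of Gp6 to Clec1b furthest left, and no pair crossed the line between the libraries.

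Among the receptors that signal through immune-type motifs, Clec1b, the podoplanin receptor CLEC-2, was well above the collagen receptor Gp6. Clec1b measured 24.58 and 28.34 TPM (26.5 ± 2.66), and Gp6 measured 4.26 and 4.89 TPM (4.58 ± 0.445). Gp6 stood at 0.173 times Clec1b in both libraries. Treml1, a receptor stored in the alpha-granule membrane, measured 21 and 19.78 TPM (20.4 ± 0.863). Fcer1g, the signalling chain on which GPVI depends, stood at 62.62 and 61 TPM, but it also serves receptors of other blood cells.

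The receptors for soluble agonists were lower, with medians of 4.93 and 5.43 TPM over 4 genes, against 22.8 and 22.2 TPM over the 10 adhesion and immune-type receptors. F2rl2, the thrombin receptor PAR3 and in mouse platelets a cofactor for PAR4, measured 12.09 and 16.04 TPM (14.1 ± 2.79). F2rl3, PAR4 itself, measured 4.06 and 4.27 TPM, so F2rl2 exceeded it 2.98-fold and 3.76-fold. The ADP receptor P2ry1 measured 5.8 and 6.6 TPM and the other ADP receptor, P2ry12, the target of clopidogrel, 1.5 and 2.07 TPM. P2ry12 was the lowest receptor, at 0.259 and 0.314 times P2ry1. F2r, which encodes PAR1 and is used by many cell types, stood at 38.83 and 48.33 TPM. In whole liver this level cannot be assigned to megakaryocytes or platelets. F2rl2 lies within the gene Iqgap2 on the opposite strand (10.67 and 13.01 TPM), and P2ry12 within Med12l on the opposite strand (0.64 and 0.96 TPM). The sources used here do not say whether the counting used strand, so reads of such a pair may not have been told apart.

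The cytoskeletal class was the most even and the highest by its median, 42.5 TPM in replicate 1 and 44.0 TPM in replicate 2. Fermt3, kindlin-3, which activates integrins in blood cells, measured 90.21 and 88.95 TPM (89.6 ± 0.891). Myl9, a myosin light chain, measured 52.44 and 53.75 TPM (53.1 ± 0.926). Tubb1, the beta tubulin of the platelet microtubule coil, measured 32.57 and 34.22 TPM (33.4 ± 1.17), and Bin2, a membrane-bending protein of blood cells, 17.75 and 22.97 TPM. For the first 3 of these genes the libraries differed by less than 2 TPM, and Bin2 was higher in replicate 2.

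Of the signalling genes, Rasgrp2, the calcium-responsive exchange factor that switches on Rap1 ahead of integrin activation, measured 77.11 and 69.07 TPM (73.1 ± 5.69). Plek, pleckstrin, a substrate of protein kinase C, measured 23.05 and 29.33 TPM, and the cation channel Trpc6 2.24 and 2.8 TPM. The eicosanoid enzymes were close to each other. Alox12, platelet 12-lipoxygenase, measured 17.58 and 19.33 TPM and Ptgs1, cyclooxygenase 1, the target of aspirin in platelets, 16.64 and 18.28 TPM. Tbxas1, thromboxane synthase, measured 10.25 and 10.88 TPM. Ptgs1 exceeded Tbxas1 1.62-fold and 1.68-fold and stood at 0.947 and 0.946 times Alox12. Ptgs2, the inducible cyclooxygenase, was at 0.05 and 0.03 TPM. Tbxas1 overlaps Hipk2 on the opposite strand over 762 nt (Hipk2 at 17.92 and 18.16 TPM). Plek likewise overlaps Cnrip1 over 796 nt (Cnrip1 at 3.02 and 3.73 TPM). As for F2rl2 and P2ry12, reads of these pairs may not have been told apart.

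Compared by class, the median log2(TPM + 0.1) of the granule genes lay below that of the receptors by -1.41 ± 0.06 (mean ± SD over n = 2 libraries), that of the cytoskeletal genes above it by 1.30 ± 0.21, and that of the signalling genes differed by 0.07 ± 0.15. The signalling difference was positive in replicate 1 and negative in replicate 2, and so was smaller than its spread. Within the granule class single genes ran from 0.595 to 463 TPM, far wider than any difference between classes. On CPM, counts scaled to library size but not to transcript length, the granule median was instead above the receptor median by 0.22, and the signalling median was above it by 1.00.

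Isoform shares differed widely among the members. Of the 33 members, 12 had 1 annotated transcript and 21 had more. In 20 of the 21 the same transcript led in both libraries, the exception being Selp, and in 12 it held over 80% of the gene's TPM on average. All 21 transcripts that led by the mean of both libraries are annotated as protein-coding. Isoform values are the model's estimates from short reads, and their errors exceed those of the gene totals. The stacked plot of shares shows the 9 genes in which no transcript held over 80% on average.

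**Figure D3:**
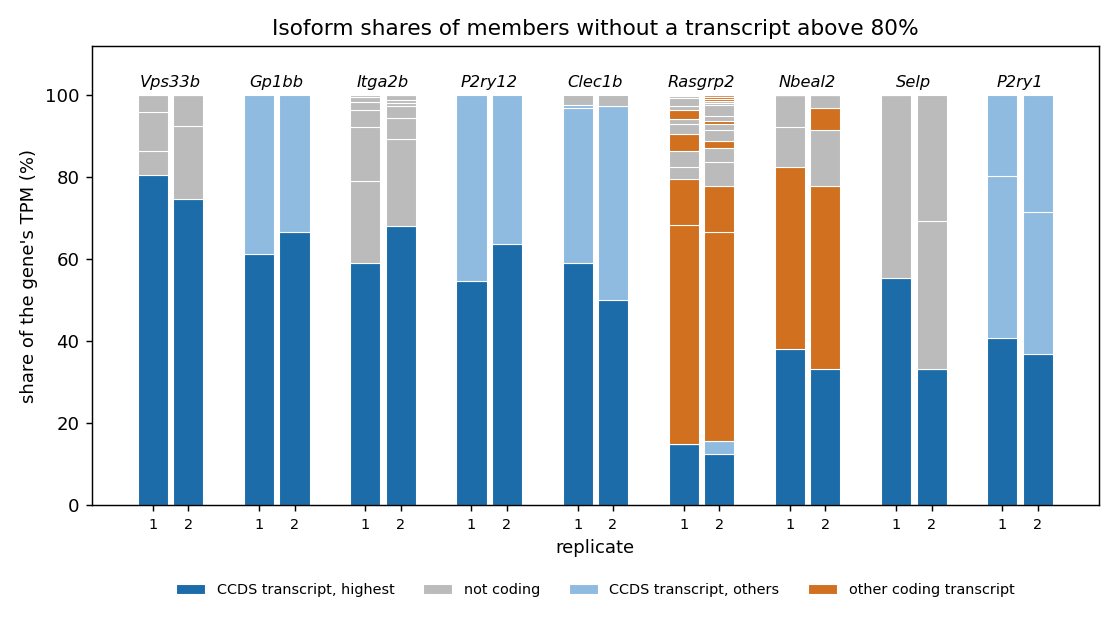
Share of the gene's TPM (vertical axis, percent) in each annotated transcript of 9 members, with bars for replicates 1 and 2. Dark blue marks the highest transcript with a tag of the consensus coding sequence (CCDS) set, light blue other CCDS transcripts, orange other coding transcripts and grey non-coding ones. Orange filled most of Rasgrp2, and Clec1b was split between 2 blue transcripts.

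Clec1b was divided between coding transcripts whose coding exons are the same but for a cassette exon. Clec1b-201 held 59.2% and 50.1% of the gene's TPM (54.6 ± 6.37), and Clec1b-203 held 37.6% and 47.3% (42.5 ± 6.82). The forms were closer in replicate 2 but in the same order. The annotated transcripts are 1090 and 614 nt long and so also differ outside their coding parts, and the estimated shares rest on the whole transcripts, not on the cassette exon alone. Exon 2 of Clec1b-201, at chr6:129400060-129400155 on the plus strand of GRCm38, is absent from Clec1b-203. It is 96 nt long and so removes 32 codons without a change of frame, leaving 197 of 229 codons. The sequences around it are shown because the exon is the difference between the coding parts of these forms, from the GENCODE M21 transcripts, with the exon in capitals and 24 nt of flank on each side in lower case.
Clec1b-201: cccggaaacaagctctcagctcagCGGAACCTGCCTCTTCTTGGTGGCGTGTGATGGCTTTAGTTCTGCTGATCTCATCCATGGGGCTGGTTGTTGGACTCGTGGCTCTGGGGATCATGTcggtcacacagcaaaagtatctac
Clec1b-203: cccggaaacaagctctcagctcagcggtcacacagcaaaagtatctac
On the Kyte-Doolittle scale, in which hydrophobic residues score above 0, the highest mean over 19 codons in Clec1b-201 was 2.61, at codons 31 to 49, which lie within the skipped exon. In Clec1b-203 the highest such mean was 0.247. CLEC-2 is a type II membrane protein, a class that crosses the membrane near its amino end. The gene also overlaps Clec9a on the same strand over 474 nt, which stood at 0.16 and 0.11 TPM.

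Rasgrp2 owed most of its TPM to short transcripts. Among its 24 annotated transcripts, Rasgrp2-205, of 535 nt, held 53.4% and 51.1% of the TPM (52.3 ± 1.65). The full-length Rasgrp2-224, of 2192 nt, held 14.9% and 12.6%. Another CCDS-tagged transcript of similar length, Rasgrp2-201, of 2219 nt, held 0% and 3.04%, so Rasgrp2-224 need not be the whole full-length share. By counts the order was the opposite, with 31.4% on Rasgrp2-205 and 39.6% on Rasgrp2-224 as means of the libraries. In replicate 2 these were 523.65 and 618.28 counts. The model's posterior SD for Rasgrp2-224 there was 168.53, so that order is uncertain in replicate 2. Rasgrp2-205 has 4 exons and 141 codons where Rasgrp2-224 has 17 exons and 608 codons. The short form reads on past a splice donor into an intron at chr19:6403564-6403618 (plus strand) and stops there, whereas the full-length form continues in the exon that starts at 6404300. The sequences at that point are shown because they are the part in which the forms differ, with 24 shared nt in lower case and the differing 55 nt in capitals. In the short form these end with the stop codon.
Rasgrp2-205: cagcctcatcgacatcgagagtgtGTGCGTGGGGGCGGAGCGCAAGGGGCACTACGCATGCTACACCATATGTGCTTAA
Rasgrp2-224: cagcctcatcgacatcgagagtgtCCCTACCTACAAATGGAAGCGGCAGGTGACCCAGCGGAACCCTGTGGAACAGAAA
With CCDS-tagged transcripts only, a restriction chosen after seeing the data, Rasgrp2 stood at 11.5 and 10.8 TPM, 21 in place of 5 among the members. Its gene level was 6.56 times that value.

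Itga2b was led by its full-length Itga2b-201, with 59.1% and 68.0% of TPM and 89.5% of counts, and the rest lay on non-coding transcripts, the largest of them Itga2b-207, of 623 nt (20.6% ± 0.882). Nbeal2 had 44.4% in both libraries on Nbeal2-205, of 3303 nt, and 38.03% and 33.3% on the full-length transcript of 8803 nt, which held 66.8% of the counts. Full-length Nbeal2 therefore stood at only 0.54 and 0.66 TPM. Vps33b was led by Vps33b-201 (80.6% and 74.7%), while Vps33b-206, annotated as subject to nonsense-mediated decay, held 5.88% and 17.7%. In the plot of levels from all against CCDS transcripts, 4 members (Rasgrp2, Nbeal2, Selp and Itga2b) had a gene level over 1.5 times the CCDS level, and the other 27 of the 31 members with such a transcript did not. Gp6 and Treml1 have no CCDS-tagged transcript in GENCODE M21.

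**Figure D4:**
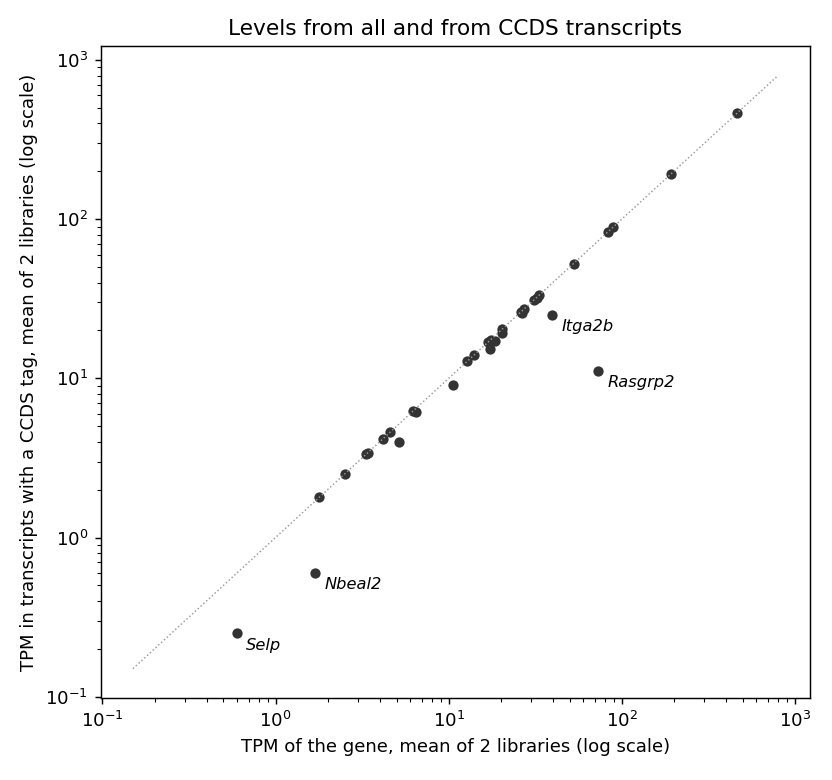
Mean TPM over the 2 libraries in CCDS-tagged transcripts (vertical log axis) against the mean TPM of the whole gene (horizontal log axis), 1 point per member, with a dotted line where both are equal. Rasgrp2 lay furthest below the line, followed by Nbeal2, Selp and Itga2b, and the other points lay on or close to it.

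Between the libraries the size of the member differences depended on the scaling. Scaled by TMM (a scaling that sets the typical gene to no change), 18 of 33 members were higher in replicate 2, beside 51.4% of all genes whose mean count was 10 or more. The median log2 ratio was 0.02, and the median size of the ratio regardless of sign was 0.18, against 0.15 over those genes. A single member, Vps33b, was more than 1.5-fold higher in replicate 2 (background 3.43%), and no member was more than 1.5-fold lower (background 4.68%). Vps33b had 343 and 526 counts, a log2 ratio of 0.62 with a 95% counting interval of 0.42 to 0.82. Gp1ba was next at 0.57 (0.33 to 0.81). At the other end Gp1bb, with 1143.76 and 790.1 counts, had a log2 ratio of -0.53 (-0.66 to -0.40). Subunits of one receptor thus lay at both ends. The interval was above 0 for 10 members, below 0 for 10 and spanned 0 for 13, and it covers counting error only. Directions in TPM can differ from these ratios. The median TPM of annotated genes that reached 1 TPM in both libraries rose from 10.8 to 12.1. Ppbp, Cd9, Myl9 and Tubb1, among others, were higher in replicate 2 in TPM but not in this ratio. Thbs1, Mmrn1, Bin2 and the granule formation genes were higher in both. Scaled to spike-in totals in place of TMM, the median log2 ratio was -0.62 and 0 of 33 members were higher in replicate 2.

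The TMM-scaled ratios moved with transcript length. Of the 11 members under 1500 nt, 2 were higher in replicate 2 (median log2 ratio -0.12), among 1500 to 3000 nt 8 of 14 (0.09), and of the 8 members of 3000 nt or more all 8 (0.20). Over the protein-coding genes the shares that were higher in replicate 2 were 26.2%, 52.4% and 67.6% in these length ranges, with medians of -0.12, 0.01 and 0.09. Across the 33 members the correlation of log2 length with the log2 ratio was 0.67 (Pearson; Spearman 0.68), and across 14027 coding genes 0.18 (Spearman 0.33). Genes are not independent replicates, and all share the same 2 libraries. Pf4, the shortest member at 586 nt, had a log2 ratio of -0.34 (-0.38 to -0.29), and Thbs1, the longest, 0.33 (0.28 to 0.38). The part of length in these differences was not tested.

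**Figure D5:**
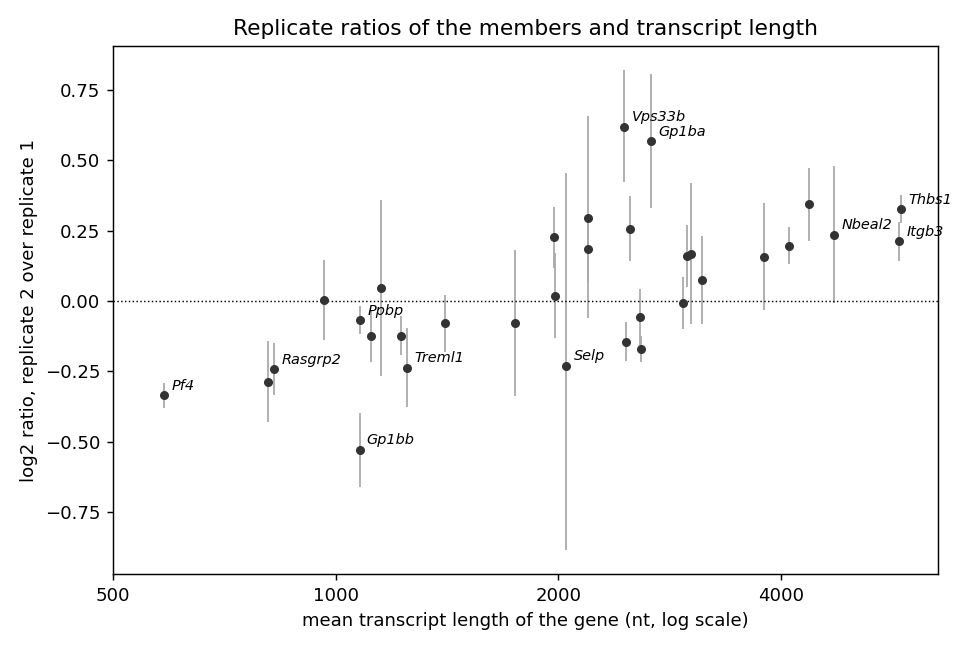
TMM-scaled log2 ratio of counts, replicate 2 over replicate 1 (vertical axis), against the mean transcript length of the gene (horizontal log axis, nt) for 33 members, with bars for the 95% counting interval and a dotted line at no difference. All 8 members of 3000 nt or more lay above the line and 9 of the 11 under 1500 nt below it.

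The transcription factors of the lineage were present with the members. Of 16 megakaryocyte regulators, 15 reached 1 TPM in both libraries, beside 52.1% of protein-coding genes. Nfe2, needed for platelet release, stood at 153.32 and 165.55 TPM, Gata1 at 121.26 and 129.93 TPM and Gfi1b at 89.35 and 99.05 TPM. These factors, and Lmo2 at 140.05 and 149.07 TPM, also act in red cell precursors. Fli1, an ETS factor of the megakaryocyte branch, stood at 8.26 and 11.84 TPM and Runx1 at 5.2 and 6.05 TPM, while Zfpm1, the cofactor FOG1, stood at 10.52 and 8.97 TPM. Thpo, which encodes the hormone thrombopoietin and is made by hepatocytes, measured 2.75 and 3.5 TPM.

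Since GATA and ETS factors bind megakaryocyte promoters, the 250 nt before the transcript start were searched on both strands for AGATAA or TGATAA and for AGGAAG. RefSeq windows on GRCm38.p6 were at hand for 28 members (29 windows). A GATA match was in 8 windows (27.6%) against 16.6% of all 32851 windows, an ETS match in 15 (51.7%) against 29.5%, and both in 5 (17.2%) against 4.72%. The 5 were those of F2rl2, F2rl3, Gp1ba, Gp5 and Slc18a2. Of these, 3 are shown, those of Gp1ba and Gp5, subunits of one receptor at different levels, and that of F2rl2, in which both matches adjoin. Capitals mark the matches, and a match on the other strand appears there as the reverse complement. The Gp1ba window is chr11:70638872-70639121 (plus), the Gp5 window chr16:30310782-30311031 (minus) and the F2rl2 window chr13:95696670-95696919 (plus).
Gp1ba: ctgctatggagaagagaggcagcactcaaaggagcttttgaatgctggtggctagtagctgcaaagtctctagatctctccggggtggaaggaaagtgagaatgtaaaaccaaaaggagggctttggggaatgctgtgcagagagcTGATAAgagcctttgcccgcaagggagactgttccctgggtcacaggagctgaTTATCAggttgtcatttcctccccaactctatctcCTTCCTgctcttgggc
Gp5: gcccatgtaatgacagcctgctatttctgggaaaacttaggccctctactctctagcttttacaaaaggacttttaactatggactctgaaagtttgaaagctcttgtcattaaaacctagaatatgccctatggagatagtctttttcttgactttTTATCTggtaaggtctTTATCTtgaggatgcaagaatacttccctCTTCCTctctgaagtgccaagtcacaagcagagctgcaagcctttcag
F2rl2: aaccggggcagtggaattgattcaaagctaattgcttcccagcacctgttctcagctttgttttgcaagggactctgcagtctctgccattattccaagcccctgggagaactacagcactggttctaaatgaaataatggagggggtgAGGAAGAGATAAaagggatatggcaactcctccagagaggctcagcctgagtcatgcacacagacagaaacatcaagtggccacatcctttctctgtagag
A match is a string of letters and does not show that a factor binds there, and the windows of members without a match say nothing of the factors either.

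Other platelet genes, from lists of each role, were counted in the same way, beside 52.1% of protein-coding genes at 1 TPM in both libraries. The further receptor genes had medians of 5.25 and 6.45 TPM and the further signalling genes 9.96 and 11.1 TPM, below the medians of the member receptors (15.2 and 19.3 TPM) and of the signalling members (17.1 and 18.8 TPM). Of 20 genes on the receptor list 19 had a row. Of these 19, 15 reached 1 TPM in both libraries, led by Itgb1 (73.25 and 91.28 TPM). Itga2, the alpha2 chain of a collagen-binding integrin, stood at 0.53 and 0.54 TPM, and Adra2a and Clec2d were lower still. That list and its medians also count Vwf, which is not a receptor but the ligand of the GPIb complex. Vwf, made by megakaryocytes and endothelium, measured 12.07 and 11.44 TPM. Of 28 further granule and secretion genes 25 reached 1 TPM, led by the vesicle SNARE Vamp8 (234.14 and 223.15 TPM), Sparc and the granule proteoglycan Srgn, with Pdgfb, Lyst and Nbea below it. Of 17 cytoskeletal genes 16 did so, led by Actb, Cfl1 and Myl6, which all cells use, and Fermt1, the epithelial kindlin, was at 0.12 and 0.03 TPM. Of 21 signalling genes 20 did so. Rap1b, the GTPase on which Rasgrp2 acts, stood at 155.61 and 178.14 TPM, followed by Gnai2 (129.77 and 146.06 TPM) and Btk (22.48 and 28.09 TPM).

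Several members are also transcribed in other cells of this organ, and markers of those cells were counted. Of all annotated genes 28.1%, and of protein-coding genes 52.1%, reached 1 TPM in both libraries. The mast cell and microglial counts below are near the latter share. Of 10 macrophage genes 9 reached 1 TPM in both libraries, with a sum of 202 and 205 TPM, led by C1qb, C1qa and C1qc, and Vsig4 lay below it. Of 10 endothelial genes 8 did so, with a sum of 84.1 and 103 TPM, led by Lyve1, Plvap and Stab2. Macrophages are known to express Tbxas1, and endothelium Thbs1, Cd9 and Selp. Of 10 smooth muscle and mesenchymal genes 8 did so, with a sum of 318 and 334 TPM, led by Col3a1, Col1a1 and Col1a2. Such cells are known to express Myl9, beside which Acta2 stood at 25.04 and 24.41 TPM and Myh11, the myosin heavy chain of mature smooth muscle, at 0.57 and 0.54 TPM. Of 10 neutrophil genes 9 did so, with a sum of 1150.4 and 1088.7 TPM, led by S100a8, Mpo and S100a9, and these cells are known to express Fermt3 and Plek. Of 10 mast cell and basophil genes 5 did so, with a sum of 31.0 and 35.7 TPM, led by Kit, Hdc and Cpa3. Kit (10.72 and 14.33 TPM) and Gata2 (4.04 and 4.58 TPM) are also in the stem and progenitor list. Fcer1a, Tpsb2 and Cma1 lay below 1 TPM in both libraries, and Mcpt4 had 0 counts. Mast cells are known to express Slc18a2. Of 5 microglial genes, listed because P2ry12 marks microglia, 3 did so, and the defining Siglech and Sall1 were below 1 TPM. All 10 erythroid genes were above 1 TPM, with medians of 467 and 460 TPM, and 8 of 10 stem and progenitor genes were. The part of these cells in the levels of the members was not tested.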

How the data were processed

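Total RNA longer than 200 nt from liver at embryonic day 13.5 was sequenced in 2 libraries, after mirVana extraction, per the labels' protocols, which also link a manual for SMARTer Ultra Low libraries. Each deposited table of genes or transcripts describes 1 library, made against mm10 and GENCODE release M4, per the deposited readme. Expected counts are the authors' estimates of reads per gene or transcript, in which reads that fit several are divided, per the file headers. TPM values were deposited by the authors, scaled per library and corrected for length. Isoform shares in percent were deposited too, per the file headers, and were recomputed here from TPM. Not given in the sources used here are the aligner, the quantification tool and the use of strand.

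Symbols and GRCm38 coordinates came from GENCODE release M21 by gene ID. The members, their classes and the lists of other genes were chosen with earlier results of these data known, so they are a description and no list was tested. Named beside the members were the 3 highest genes of each list, listed genes below 1 TPM in both libraries, and Thpo, Gata1, Fli1, Runx1, Nfe2, Zfpm1 and Gfi1b. A gene that this rule names is not reported here. Also named, with their values in view, were genes that overlap members, Vwf and Acta2, Alb, Afp, Apoa1 and Hba-a1 as a check of the tissue, and the isoforms described. All results are values in each library with the mean and SD over n = 2. Ratios between the libraries were taken as log2 of the expected count after adding 0.5, scaled by TMM in edgeR 4.0.16 (R 4.3.3), over 15997 genes whose mean count was 10 or more, with exact binomial 95% intervals that cover counting error only, since the files carry no molecular identifiers. The libraries are not duplicates of each other, with a chi-square of 23.0 per degree of freedom over 16020 genes. Other steps used Python 3.11.15 with pandas 2.3.3 and scipy 1.17.1. Alternatives covered the pseudocount, thresholds, posterior mean TPM, counts in place of TPM, scaling (DESeq2 1.42.0 size factors, library totals, spike-in totals) and each library alone. Promoter windows came from RefSeq and transcript sequences from GENCODE M21. In 14 of the members' 121 transcripts the length in the tables differed from that in M21.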

Additional observations from a re-analysis of the deposited data

How the results depend on the processing

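With 2 libraries of 1 group, the values describe this pair of libraries only, and the lowest member, Selp, rests on 43.16 and 36.61 counts, which limits its TPM and isoform shares. The difference of the granule from the receptor median, -1.41, was -1.29 with a pseudocount of 1 and -1.48 with CCDS-tagged transcripts only, and on CPM it reversed to 0.22. The cytoskeletal difference of 1.30 became 1.05 on CPM. The signalling difference of 0.07 became 1.00 on CPM and -0.39 with CCDS-tagged transcripts. The CCDS alternative was chosen after seeing the data. Scaled to spike-in totals, which differ from TMM by 0.64 on the log2 scale over all genes, the median member ratio of 0.02 reversed to -0.62 and 0 of 33 members were higher in replicate 2. The ratio of Itga2b to Itgb3 reversed to -0.028 on expected counts. On CCDS-tagged transcripts it was 0.58. Of the log2 ratios between members, 12 planned and 4 added alternatives moved the value by more than the SD over the libraries without a change of direction, and Pf4 over Ppbp became 0.26 in counts. Replicate 1 alone and replicate 2 alone gave -1.45 and -1.37 for the granule, 1.44 and 1.15 for the cytoskeletal and 0.17 and -0.04 for the signalling difference, and medians of 16.6 and 19.3 TPM for the members. No paired analysis was possible because there was 1 group.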
